A study of Mus musculus with 12 samples.

Results

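The comparison set mouse kidney epithelial cells labelled as lacking both Actr3 and Ift88 (dKO) against the control line of the same series. It rested on 6 of the 12 libraries, the 3 dKO and the 3 control libraries, chosen by the group name in each column heading of the table. Both groups were mIMCD3 cells, an immortalized mouse line from the inner medullary collecting duct, the last segment of the renal tubule. The control line carried a wild-type label, and the dKO line was labelled for knockout of Actr3 and Ift88. The cells had been cultured to confluence over 48 h with 10% fetal calf serum and were then kept without serum for 24 h, so serum starvation was common to all groups, and no ciliobrevin D was given to the groups compared. The 3 libraries of the Actr3 knockout line (Actr3 KO) without drug, cultured alike, served as a further reference. The labels name 1 line for each knockout, so a line and its genotype cannot be told apart, and nothing in them tells separate cultures from repeat preparations within a group. The p-values thus gauge sample-to-sample spread only, and part or all of that spread may be technical. How the lines were edited is not described in the labels.

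Actr3 encodes ARP3, which together with ARP2 forms the nucleating core of the Arp2/3 complex. The complex binds the side of an existing actin filament and starts a branch, and it drives lamellipodia, endocytic actin and the cortical network of epithelial cells. Ift88 encodes a core component of the intraflagellar transport B complex, which carries cargo along the axoneme, and cells without it build no or very short primary cilia. In collecting duct cells the primary cilium is a sensory organelle, and loss of Ift88 function in the kidney leads to cystic disease.

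Each control library held 37001577 to 38077987 recovered reads and each dKO library 30391369 to 32588460. Across genes, log2 values correlated at 0.942 to 0.947 between a control and a dKO library, and at about 0.996 between libraries of 1 group; genes are not independent replicates, so these describe similarity only. No library was a copy of another: replicate pairs gave chi-square values of 4.30 to 11.3 per degree of freedom. One control column is headed with control number 2, whereas every control title has number 1, so it matches no single title. Whether that marks a separate line is not told by the labels. It entered the control group with no replicate number, and 8773 genes were called without it, against 9235 with it. Values below are normalized counts, given for control in the order replicate 1, the library without a number and replicate 3, and for dKO in the order replicate 1 to 3. Means are given with the SD over 3 libraries, and fold changes are differences of log2(value + 1), which understates the change of low genes; a rise or difference given as a single number is on that scale.

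Of 13495 genes tested, 9235 differed between dKO and control at an adjusted p under 0.05 (68.4%; limma with Benjamini-Hochberg adjustment). In dKO 4436 were higher (32.9%) and 4799 lower (35.6%), and the median log2 fold change over all genes was -0.01. Changes of at least 2-fold were found in 1606 genes (11.9%), of which 586 were higher (4.34%) and 1020 lower (7.56%). The values of the groups did not overlap in 9884 genes (73.2%). With this background a called gene is common, and the share of a list that was called is to be read against 68.4%. In what follows, rose and fell are used of genes called in dKO against control, and every gene named for a change had values that did not overlap between these groups. Between dKO and Actr3 KO, 9064 of the same genes differed (67.2%), 4553 of them higher in dKO (33.7%) and 4511 lower (33.4%). The comparisons of either knockout line with control share the control libraries, so their values are set side by side without a measure of likeness.

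**Figure D1:**
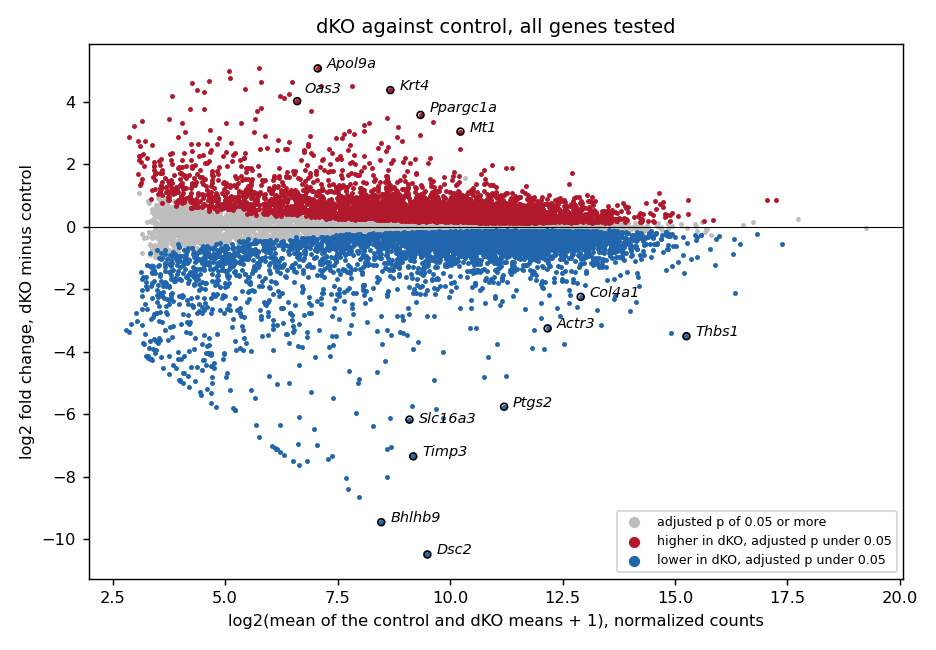
Each point is 1 of the 13495 genes tested, with the mean level of control and dKO on the x axis (log2 of normalized counts plus 1) and the log2 fold change, dKO minus control, on the y axis; red and blue mark genes called higher and lower, grey marks genes not called, and 13 genes are named. Dsc2 and Bhlhb9 lie lowest, while Apol9a is highest among those named, at 5.07.

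The level of Actr3 serves to check the labels. Actr3 (in GRCm38: Entrez 74117, chromosome 1, 125392900 to 125435730) had 8101, 8664 and 8243 normalized counts in the control libraries and 869.99, 833 and 911 in the dKO libraries. All dKO libraries lay far below the control libraries, and the log2 fold change was -3.26 ± 0.07 (SE, limma adjusted p = 6.73e-19). The dKO line also held less Actr3 RNA than the Actr3 KO line, in which the mean was 1218 ± 111; the difference was -0.48 ± 0.07 (SE, limma adjusted p = 7.04e-06). The ciliary gene Ift88, on chromosome 14 (57424064 to 57517936, Entrez 21821), had 471, 458 and 441 normalized counts in the control libraries and 633, 573 and 606 in the dKO libraries. It was thus higher in every dKO library than in any control library, by 0.40 ± 0.07 (SE, limma adjusted p = 3.97e-05). Ift88 had 617 ± 34.2 in Actr3 KO, and dKO differed from that by -0.03 ± 0.07 (SE, limma adjusted p = 0.723). A gene total says nothing of a short edit within the reading frame, so the Ift88 label is not tested by these values.

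The other subunits of the Arp2/3 complex had log2 fold changes of -0.41 to 0.44 against control, and each was higher in dKO than in Actr3 KO. ARP2 itself (Actr2) had 9699.6, 9236 and 9631 normalized counts in the control libraries and 11445, 10704 and 10399 in the dKO libraries, a log2 fold change of 0.19 ± 0.05 (SE, limma adjusted p = 0.00351). Its level in Actr3 KO was 5802 ± 60.4, and the difference of dKO from that line was 0.90 ± 0.05 (SE, limma adjusted p = 4.64e-12). Arpc1a and Arpc1b, the alternative ARPC1 subunits, rose by 0.44 and 0.31, and Arpc3 rose from 5495 ± 253 to 6369 ± 300.1. Arpc4 fell from 3080.4 ± 50.8 to 2312 ± 71.1 and Arpc2 fell from 10119 ± 231 to 8238 ± 156; these subunits form the core of the complex that binds the mother filament. Arpc5 and its paralog Arpc5l moved by 0.15 and -0.16. With chromosome medians removed, Arpc2, Arpc3 and Arpc4 were no longer called, and Arpc5 and Arpc5l each lost the call when 1 of several libraries was left out. Removing chromosome medians also gave 0.28 for Arpc1a, 0.15 for Arpc1b and 0.34 for Arpc5. Under quantile normalization Actr2 stood at 0.42, Arpc1b at 0.52, Arpc3 at 0.38, Arpc2 at -0.08 and Arpc5l at -0.10, the last pair not called. In all, 5 subunits were higher and 4 lower of 9 tested, with a median of 0.15. All but Actr3 lay above their Actr3 KO level, with differences in dKO from 0.93 for Arpc1b and 1.25 for Arpc3 down to 0.42 for Arpc4 and 0.34 for Arpc2.

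**Figure D2:**
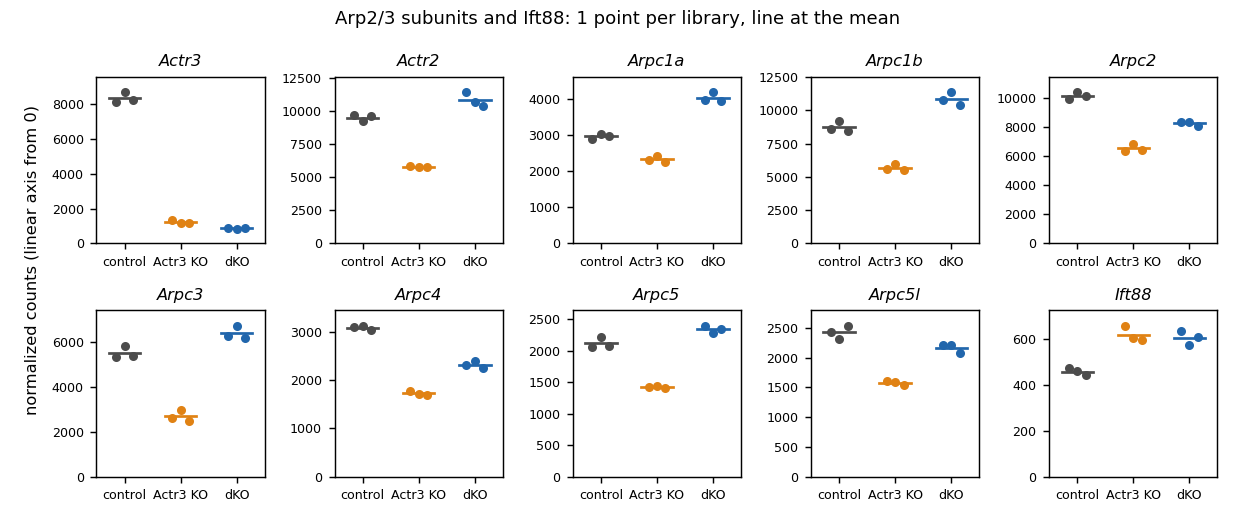
Normalized counts (y axis, linear from 0) of the 9 tested Arp2/3 subunits and of Ift88 in each control, Actr3 KO and dKO library, with 1 point per library and a line at the group mean. Actr3 is low in both knockout lines, and the other subunits are lowest in Actr3 KO, with dKO near or above control for Actr2, Arpc1a, Arpc1b, Arpc3 and Arpc5 and between both for Arpc2, Arpc4 and Arpc5l.

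The next list holds proteins that switch the Arp2/3 complex on or off. Of 26 tested genes, 13 rose, 9 fell and 4 were not called, with a median log2 fold change of 0.12. Their values ran from -4.41 to 0.88. The 2 members past 2-fold, with means under 100 in control and dKO, are not named. Arpin, which inhibits the complex at lamellipodia, rose from 754 ± 39.8 to 1383 ± 41.4. Coro1b, a coronin that helps to take branches apart, rose from 6162 ± 469 to 10878 ± 571. Washc1 and Washc3, subunits of the WASH complex that activates Arp2/3 on endosomes, rose by 0.77 and 0.61, and Wipf1, a partner of WASP proteins, rose by 0.69. Brk1, a small subunit of the WAVE complex, fell from 2752 ± 11.1 to 1823 ± 68.8. Formins start unbranched filaments. Of 16 tested genes, 3 rose, 7 fell and 6 were not called, with a median log2 fold change of -0.13, a called share below the 68.4% of all genes. Spire1, a linear nucleator that works with formins, fell from 615 ± 50.6 to 232 ± 16.3, Fmn1 fell (log2 fold change -0.73) and Diaph1 (-0.43) on the log2 scale, and Fmnl1 rose by 0.63. With chromosome medians removed, Brk1 stood at -0.21 in place of -0.60 and Washc3 at 0.21, and under quantile normalization Diaph1 stood at -0.27.

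Genes driven by serum response factor and its actin-regulated cofactors, together with contractile genes, were mostly lower. Of 24 tested genes, 1 rose, 20 fell and 3 were not called, with a median log2 fold change of -0.69. The same list had a median of -0.31 in Actr3 KO against control. The cytoplasmic actin gene Actg1 had 20996, 19978 and 19627 normalized counts in the control libraries and 10021, 9463 and 9621 in the dKO libraries. Flna, filamin A, which crosslinks actin filaments, had 50356, 44263 and 46902 normalized counts in the control libraries and 22596, 21083 and 21140.2 in the dKO libraries. For both genes every dKO value was below every control value, and Flna also lay below Actr3 KO (difference -1.23). Cald1 (caldesmon) fell (log2 fold change -0.94), Fhl2 (-1.01) and Tagln (transgelin) (-2.05). Tgfb1i1, a focal adhesion protein, was the 1 member that rose, from 84.4 ± 8.43 to 199 ± 31.8. Cald1 stood at -0.56 with chromosome medians removed.

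Microtubule genes showed small differences in both directions. Of 14 tested genes, 3 rose, 6 fell and 5 were not called, with a median log2 fold change of -0.09. Tube1, the epsilon-tubulin of centrioles, rose from 452 ± 8.31 to 851 ± 60.0, Tubb3 rose by 0.55, and Tuba1a and Tubb6 fell (log2 fold changes -0.75 and -0.53); tubulin genes are close paralogs, and the labels do not say how reads were shared between them. Cytoplasmic dynein, the motor that ciliobrevin D inhibits, and its partner dynactin were split. Of 26 tested genes, 10 rose, 10 fell and 6 were not called, with a median log2 fold change of -0.04; the median was above 0 under quantile normalization. Dctn2, the dynamitin subunit of dynactin, rose from 4216 ± 171 to 7665 ± 344, and the cargo adaptors Hook2 and Hook3 rose by 0.89 and 0.54, while Hook1 fell (log2 fold change -0.42) and Nde1 (-0.59). With chromosome medians removed, the log2 fold change was -0.19 for Nde1, 0.47 for Dctn2 (in place of 0.86) and 0.51 for Tube1 (in place of 0.91).

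Intraflagellar transport trains and the BBSome carry cargo within the cilium. Of 39 tested genes, 16 rose, 11 fell and 12 were not called, with a median log2 fold change of 0.12, a called share close to the 68.4% of all genes. Among the retrograde complex A genes, Ift140 had 1449, 1379.5 and 1342 normalized counts in the control libraries and 2160.1, 2273 and 2193 in the dKO libraries, and Wdr19 rose by 0.58. Ift172, of complex B, rose from 2448 ± 225 to 3697 ± 31.2. Ift140 and Ift172 were above control in each dKO library, with Ift172 also above Actr3 KO by 0.17. Bbs7, a BBSome subunit, rose by 0.58. Tulp3, the adaptor that brings membrane receptors to complex A, fell by more than its spread, with a mean of 1486 in control and 818 in dKO, and the small GTPase Arl6, which recruits the BBSome, fell (log2 fold change -0.65). Neither was called against Actr3 KO (differences 0.13 and -0.01). With chromosome medians removed, the log2 fold change was -0.47 for Tulp3, -0.25 for Arl6 and 1.03 for Bbs7, against -0.86, -0.65 and 0.58.

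At the ciliary base and membrane the changes were divided. Of 36 tested genes, 9 rose, 14 fell and 13 were not called, with a median log2 fold change of -0.02; the median was above 0 without control replicate 1. Arl13b, the small GTPase that marks the ciliary membrane, had 1102, 1113 and 1168 normalized counts in the control libraries and 658, 597 and 602 in the dKO libraries. Rab23, a GTPase that restrains Hedgehog signalling, had 1262, 1310.1 and 1282 normalized counts in the control libraries and 696, 590.1 and 663 in the dKO libraries. Both were lower in every dKO library and lay below Actr3 KO (differences -0.88 and -0.87). Cep83, of the distal appendages that dock the basal body, fell (log2 fold change -0.77), and Iqcb1 (-0.56), a call lost with chromosome medians removed (-0.16, limma adjusted p = 0.124). In that setting Arl13b stood at -0.47 in place of -0.87, and Cep83 at -1.16. The transition zone genes Tctn1 and Mks1 rose by 0.51 and 0.51.

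Hedgehog signalling passes through the primary cilium, where Smoothened and the GLI factors are moved and processed. Of 10 tested genes, 2 rose, 6 fell and 2 were not called, with a median log2 fold change of -0.28. Gli2, the main activating GLI factor, went from 498 reads over the control libraries to 0 over the dKO libraries, or at least 156-fold lower when the dKO group is set to a limit of 3 reads in all; the Actr3 KO libraries held 246 reads. Read totals of Actr3 KO here include its replicate 1, whose read unit lies so near 1 that it was held uncertain. Gli3, which acts mostly as a repressor, fell from 2682 ± 105 to 2032 ± 102 and lay below Actr3 KO (difference -0.40). The co-receptors Gas1 and Cdon fell from 3188 ± 58.1 to 1634 ± 70.8 and from 2471 ± 76.2 to 1416 ± 44.3. Their means in Actr3 KO were 3139.5 and 2555, above every dKO value. The receptor gene Ptch1, itself a Hedgehog target, rose by 0.21, and Smo fell (log2 fold change -0.38). The Ptch1 call was lost without control replicate 3 (limma adjusted p = 0.0545) and with chromosome medians removed, a setting in which Smo moved to 0.0026 (limma adjusted p = 0.972).

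A set of 19 genes had at least 300 reads over the control libraries and at most 3 over the dKO libraries, and 0 genes showed the reverse. In dKO 11 of them had 0 reads and 8 had 1 to 3. Of the 19, 5 kept at least 300 reads in Actr3 KO, 2 had at most 3 there and the other 12 lay between these limits. Dsc2, encoding the desmosomal cadherin desmocollin-2, had 1431, 1409 and 1487 normalized counts in the control libraries, 1893, 1959 and 2251 in Actr3 KO and no read in dKO. Its 4882 control reads made it at least 1527-fold lower. Bhlhb9 had 2398 reads in control, 2488 in the Actr3 KO libraries and none in dKO, which is at least 749-fold lower. Both genes were thus well covered in the other lines and absent at this depth in dKO. Igfbp2, an insulin-like growth factor binding protein, had 612, 494 and 0 reads, at least 191-fold lower than control. Itga9, the integrin alpha-9 chain, had 1690 reads in control, 718 in Actr3 KO and 1 in dKO, a control to dKO ratio of 1585 with an exact 95% interval of 284 to 62655. Galnt14, which starts mucin-type O-glycans, had 1376, 1159 and 2 reads, a ratio of 645 (178 to 5335). Such intervals and bounds, that of Gli2 included, cover counting error only. The 19 genes were picked on these same reads, so a large ratio was set by the choice and is no further support.

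The other members of that set had fewer reads in Actr3 KO than in control. Gnai1, an inhibitory G protein alpha subunit, had 1422 control reads, 14 in Actr3 KO and 1 in dKO. Gja1, encoding connexin 43, had 761, 5 and 1. Pcsk6, a proprotein convertase, had 667, 27 and 0. These 3 genes were near 0 in both lines labelled for Actr3 loss. The same held for Rgs16 (a regulator of G protein signalling), Ak4 (a mitochondrial adenylate kinase), Cdkn1c (the cell cycle inhibitor p57), Zfp518b, Magohb and Mageh1, with 0 to 34 reads in Actr3 KO and 0 to 2 in dKO. Tex15, Aplp1, Mpped2 and Ccl2 stood between, with 74 to 248 reads in Actr3 KO and 0 to 3 in dKO. A tested gene within 200 kb was there for 14 of the 19 and for none of the other 5 (Dsc2, Gnai1, Galnt14, Ccl2 and Mageh1), which could not be examined. Beside 2 of the 14 lay a neighbour with a log2 fold change of -3 or less. These were Clip3 beside Aplp1 on chromosome 7 and Arxes2 beside Bhlhb9 on the X chromosome, both named after their values were seen.

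Some genes in dKO stood far from both other lines, leaving aside low genes (means under 100 on the higher side). Krt4, a keratin of stratified squamous epithelium, had 29.5, 39.1 and 42.4 normalized counts in the control libraries and 787, 801 and 744 in the dKO libraries, and 41.7, 51.8 and 40.2 in Actr3 KO. Psca, a membrane-anchored protein of urothelium and stomach, had 38.2, 27.6 and 18.0 normalized counts in the control libraries and 185, 236 and 195 in the dKO libraries, and 5.96, 9.32 and 4.79 in Actr3 KO. Both were near their control level in Actr3 KO or below it and high in dKO alone of the 3 lines, by 4.10 and 4.78 against Actr3 KO. Sh3gl2, encoding endophilin A1, had 13.9, 17.8 and 16.2 normalized counts in control and 195, 225 and 245 in dKO, and Adh7, an alcohol dehydrogenase that also oxidizes retinol, rose from 127 ± 31.5 to 843 ± 35.4. The kinase gene Sgk2, the phosphatase gene Ppm1h, the serpin gene Serpinb9b, Nol4, Fam171b and the chemokine gene Ccl5 completed the 10 highest, with log2 fold changes of 2.13 to 4.26 against control and a largest difference of 4.23, that of Nol4, against Actr3 KO. In the other direction, beside Dsc2, Bhlhb9, Itga9, Galnt14 and Igfbp2, stood Clip3, Timp3, Dkk3, Frem2 and Pros1. Pros1, encoding the anticoagulant protein S, had 1482, 1467 and 1657 normalized counts in the control libraries and 53.9, 50.9 and 47.1 in the dKO libraries, and 2940.1 on average in Actr3 KO. Frem2, a matrix protein of the Fraser complex that anchors epithelium to mesenchyme, fell from 1616 ± 110.3 to 28.5 ± 8.67, and Clip3, a microtubule-binding linker protein, fell from 769 ± 118 to 2.49 ± 2.67.

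When called genes averaging under 100 in both control and dKO are left aside, the 15 largest rises held several genes that were also high in Actr3 KO. Apol9a and Apol9b, a near-identical pair whose reads may be shared between copies, rose from 6.79 ± 1.29 to 258 ± 20.9 and from 7.70 ± 1.99 to 149 ± 8.82, and were not called against Actr3 KO (differences -0.05 and 0.13). Osr2, an odd-skipped zinc finger factor of kidney and palate development, had a mean of 18.3 in control, 434 in dKO and 118 in Actr3 KO. Ppargc1a, encoding the coactivator PGC-1alpha that promotes mitochondrial biogenesis, had 89.3, 124 and 88.4 normalized counts in the control libraries and 1263, 1093 and 1233 in the dKO libraries, with 445 in Actr3 KO. For both genes dKO was highest, Actr3 KO between and control lowest. Gas7, Islr2, Slc2a6 (the glucose transporter GLUT6), Ckmt1 (mitochondrial creatine kinase) and Plekha6 rose by 3.33 to 4.63, and of these Plekha6 differed least from Actr3 KO, by 0.28. Gbp8, an interferon-inducible GTPase with close paralogs, rose from 140.3 ± 18.9 to 1429.9 ± 56.1. Among the 15 largest falls under the same limit, Marcks, a membrane-bound substrate of protein kinase C that binds actin, had a mean of 328 in control and 1.27 in dKO, with 4.71 in Actr3 KO.

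The list of matricellular proteins, proteases and inhibitors had the lowest median of the 38 lists. It did not with chromosome medians removed (-1.09, against -1.35 for the immediate early list). Not all of its members are secreted, as Vim is a filament protein within the cell. Of 25 tested genes, 2 rose, 16 fell and 7 were not called, with a median log2 fold change of -1.49. The median was -0.47 in Actr3 KO against control. Thbs1, thrombospondin-1, had 73378, 69230.04 and 73085 normalized counts in the control libraries and 6254, 6212 and 6486 in the dKO libraries. Timp3, an inhibitor of metalloproteinases that is held in the matrix, had 1157, 1114 and 1187 normalized counts in the control libraries and 7.44, 3.70 and 7.85 in the dKO libraries. Plat, tissue plasminogen activator, had 49677, 62684 and 56029 normalized counts in the control libraries and 5055, 5571 and 5261 in the dKO libraries. In each of these genes every dKO value lay far below the lowest control value, with log2 fold changes of -3.51, -7.35 and -3.40. They were also lower than in Actr3 KO (differences -2.39, -5.87 and -0.77). Spp1 (osteopontin) fell from 28307 ± 1949 to 4362 ± 228, and Vim, the mesenchymal intermediate filament vimentin, fell from 702 ± 114 to 70.6 ± 10.2. RNA of bulk cultures cannot tell fewer cells of a kind from less RNA per cell.

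Collagen genes were mostly lower than in control and than in Actr3 KO. Of 25 tested genes, 3 rose, 18 fell and 4 were not called, with a median log2 fold change of -0.47. In the same list against Actr3 KO, 1 was higher and 22 lower in dKO, and the median was 0.46 in Actr3 KO against control. Col4a1, a chain of the basement membrane collagen IV, had 12578, 12316 and 13105 normalized counts in the control libraries and 2558, 2716 and 2725 in the dKO libraries, with 15796, 17169 and 19384 in Actr3 KO. Col4a2, its partner chain, had 11072, 9956 and 10868 normalized counts in the control libraries and 2269, 2417 and 2264 in the dKO libraries, with 13261, 13814 and 15898 in Actr3 KO. Both chains were highest in Actr3 KO and lowest in dKO, with dKO below Actr3 KO (differences -2.71 and -2.62). Of the enzymes that hydroxylate collagen, Plod2 fell from 12372 ± 2047 to 2038 ± 11.6 and P4ha2 fell from 4482 ± 589.7 to 958 ± 33.9. Among integrins, laminins and other basement membrane components the counts were as follows. Of 28 tested genes, 9 rose, 17 fell and 2 were not called, with a median log2 fold change of -0.34, and against Actr3 KO, 1 was higher and 25 lower in dKO. Itgb3 fell from 304 ± 4.43 to 16.6 ± 2.89 and Nid2 (nidogen-2, which links laminin to collagen IV) fell from 11051 ± 943 to 822 ± 54.3. Itga3, a laminin receptor chain, fell from 56360.1 ± 1085 to 27469 ± 1711, whereas Itga2, of a collagen receptor, rose from 149 ± 10.5 to 473 ± 6.72.

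**Figure D3:**
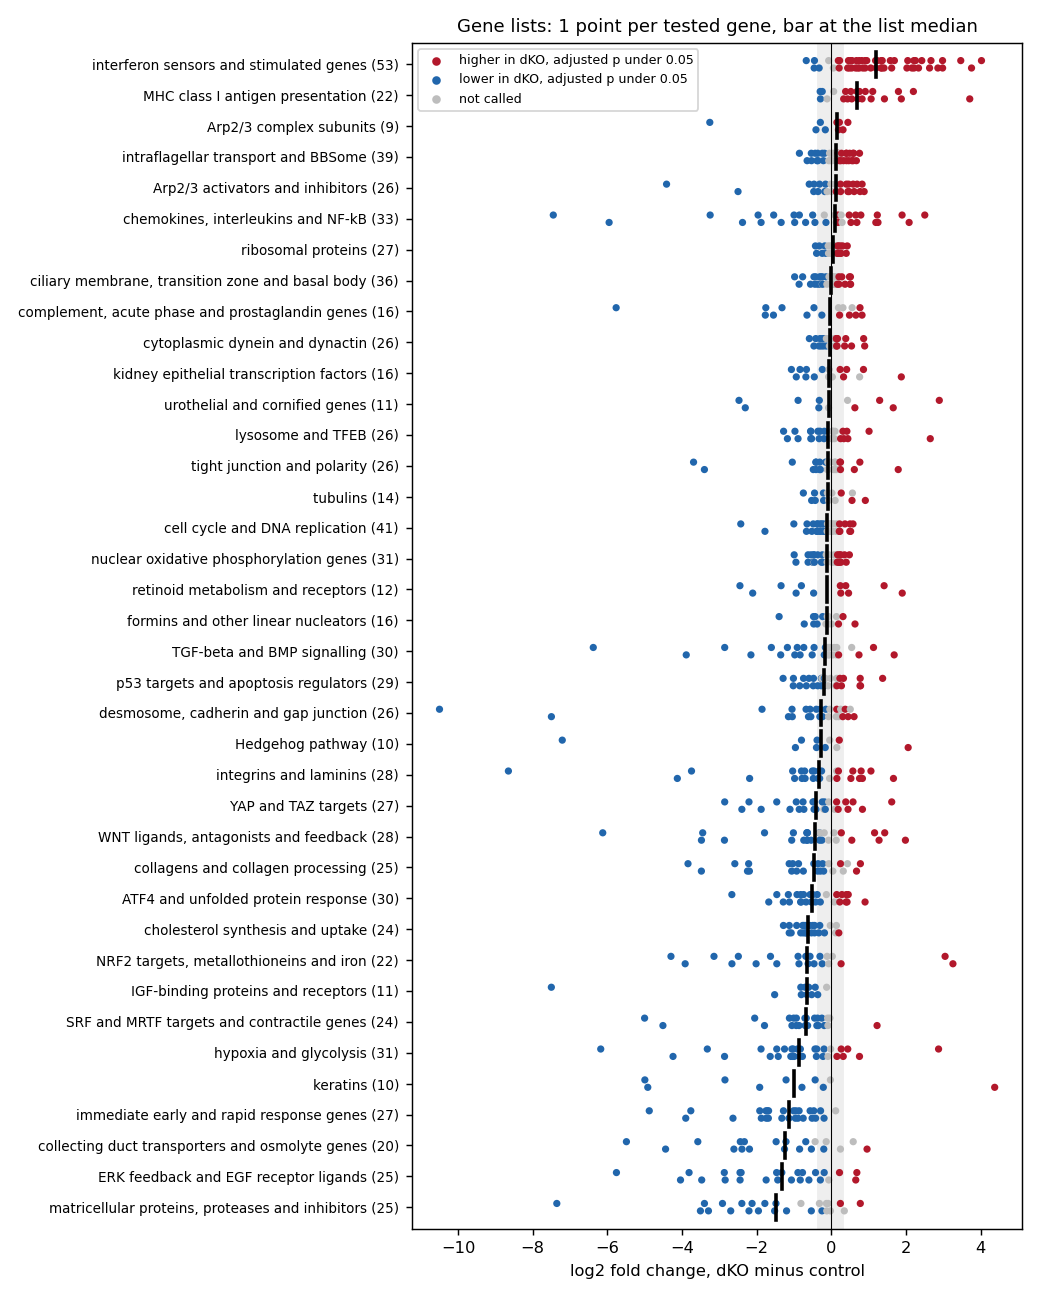
Each point is a tested gene of 1 of the 38 lists, placed by its log2 fold change, dKO minus control, with red for genes called higher, blue for genes called lower and grey for genes not called; the black bar is the list median, the number of tested genes is in brackets and the grey band spans the quartiles of all genes tested. The interferon list has the highest median, 1.18, and the list of matricellular proteins, proteases and inhibitors has the lowest, -1.49, a place that it loses with chromosome medians removed.

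YAP and TAZ are coactivators that carry mechanical and junctional signals to TEAD transcription factors, and many of their known targets fell. The list counted here also holds the genes of YAP, TAZ and the TEAD factors themselves. Of 27 tested genes, 7 rose, 17 fell and 3 were not called, with a median log2 fold change of -0.41; against Actr3 KO, 2 were higher and 19 lower in dKO. Ccn1, a secreted matricellular protein and standard target, had 25949, 31603 and 33143 normalized counts in the control libraries and 5577, 5809 and 5719.8 in the dKO libraries. Ccn2, its relative, had 18123, 22064 and 24324 normalized counts in the control libraries and 4715, 4641 and 4508 in the dKO libraries. Both were several times lower in every dKO library, and lower than in Actr3 KO (differences -1.76 and -0.60). F3, tissue factor, fell from 12868 ± 1103 to 3483 ± 34.5, Dlc1, a GTPase activating protein, fell from 3788 ± 238 to 1370.5 ± 30.6, and Tead4 fell from 973 ± 68.2 to 449.7 ± 6.60; its log2 fold change of -1.11 was -0.72 with chromosome medians removed. The 6-letter TEAD motif GGAATG was looked for on both strands of the promoter, taken as 250 bases before to 50 after the transcription start in RefSeq GRCm38.p6. It was present in 8 of the 11 fallen members with a promoter in that table (72.7%) and in 2 of 7 risen members (28.6%). It was in 14.7% of all 32851 promoters and in 14.6% of the 10297 tested genes with a promoter. Here and below, members and tested genes count once each, for a match in any of their promoters. Target genes enter such lists partly for their TEAD sites. Some of the fallen members with a match are genes of the factors themselves. A match is a description, not a bound site. The Ccn1 promoter is shown because this gene was among the 6 members with the largest change: the 250 bases before its start, chr3:145649986-145650235 (minus strand), read 5′ to 3′ along the gene, with the match on the opposite strand in capitals.
Ccn1: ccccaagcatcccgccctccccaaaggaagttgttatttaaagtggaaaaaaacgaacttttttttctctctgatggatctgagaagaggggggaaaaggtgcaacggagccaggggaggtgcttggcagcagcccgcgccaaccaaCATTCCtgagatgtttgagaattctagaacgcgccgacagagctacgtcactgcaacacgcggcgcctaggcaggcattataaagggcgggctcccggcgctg

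In the TGF-beta and BMP list, of 30 tested genes 4 rose and 16 fell (median -0.16). Fst, encoding follistatin, the secreted antagonist of activin, had 6150.5, 7004 and 7181 normalized counts in the control libraries and 449, 471 and 448 in the dKO libraries, with 7839, 7909.5 and 8148 in Actr3 KO. Fst was thus low in dKO and at or above control in Actr3 KO, a difference between these lines of -4.12. Tgfb2, a TGF-beta ligand, fell from 293 ± 26.8 to 39.8 ± 6.44, Ltbp1, which stores TGF-beta in the matrix, fell from 1317 ± 32.4 to 297 ± 45.1, and Fstl1 fell from 619 ± 38.1 to 6.61 ± 1.85, while Bmp7, a ligand made by collecting duct epithelium, rose from 112 ± 9.50 to 362 ± 24.2. In the WNT list 6 of 28 tested genes rose and 17 fell (median -0.43). Dkk3, a secreted protein of the Dickkopf family, had 1662, 1924 and 1869 normalized counts in the control libraries and 28.8, 23.1 and 23.6 in the dKO libraries, with 2120.3, 2339 and 2479.6 in Actr3 KO. The ligand gene Wnt5b fell from 112 ± 13.7 to 9.16 ± 1.41, and the receptors Fzd5 and Lgr4 fell (log2 fold changes -1.79 and -1.06), whereas Wnt9a and Fzd8 rose by 1.15 and 1.28. In the insulin-like growth factor list, 0 of 11 tested genes rose and 10 fell (median -0.66). Beside binding proteins, receptors and adaptors it holds the Igf2bp genes, whose products bind Igf2 mRNA and not the growth factor. The receptor Igf1r fell from 10753 ± 949 to 6078 ± 255. Its adaptors Irs1 and Irs2 fell too (log2 fold changes -0.81 and -0.71).

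Immediate early genes, which growth factors and stress switch on within minutes, were lower almost throughout. Of 27 tested genes, 0 rose, 26 fell and 1 was not called, with a median log2 fold change of -1.14. Fos had 924, 1117 and 1215 normalized counts in the control libraries and 69.7, 81.4 and 63.8 in the dKO libraries, with 222, 229 and 273 in Actr3 KO. Fosb and Fosl1, of the same AP-1 family, fell from 487 ± 107 to 15.5 ± 2.90 and from 662 ± 43.7 to 48.0 ± 7.16. Fos and Fosb were lowest in dKO and between in Actr3 KO, and dKO differed from Actr3 KO (differences -1.74 and -1.81). Atf3, a stress-induced factor, fell from 5656 ± 1506 to 887 ± 62.9, Maff fell (log2 fold change -1.92) and the orphan nuclear receptor gene Nr4a1 (-1.88). The member not called was Klf10 (named after its value was seen). The list of ERK pathway feedback genes and EGF receptor ligands was lower as well. Of 25 tested genes, 3 rose, 21 fell and 1 was not called, with a median log2 fold change of -1.33. Dusp6, the phosphatase that inactivates ERK, had 8732, 10555 and 10289.9 normalized counts in the control libraries and 1351, 1325 and 1356 in the dKO libraries, with 1125, 1209.5 and 1328 in Actr3 KO; dKO and Actr3 KO differed by 0.14 ± 0.07 (SE, limma adjusted p = 0.0927). Spry4, a Sprouty inhibitor, fell from 1118 ± 40.1 to 20.2 ± 5.56. The ETS factors Etv4 and Etv5, targets of ERK signalling, fell from 972 ± 23.5 to 86.9 ± 9.53 and from 181 ± 11.5 to 12.6 ± 5.07, and the phosphatases Dusp4 and Dusp5 fell (log2 fold changes -2.45 and -2.85). Medians in Actr3 KO against control were -0.96 for the immediate early list and -1.02 for the ERK list. The AP-1 motif TGANTCA was found in 1 of 20 fallen immediate early genes with a promoter (5.0%) and in 0 of 16 such genes of the ERK list. It was in 7.81% of all promoters and in 6.14% of tested genes with a promoter.

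Interferon-stimulated genes, the antiviral programme that interferon signalling switches on, formed the list with the highest median. Of 53 tested genes, 47 rose, 4 fell and 2 were not called, with a median log2 fold change of 1.18. Oas3, an oligoadenylate synthetase that activates RNase L, had 13.9, 10.7 and 7.22 normalized counts in the control libraries and 181, 169 and 194 in the dKO libraries, with 194, 168 and 145 in Actr3 KO. Rsad2, encoding the antiviral enzyme viperin, had 58.1, 45.4 and 51.4 normalized counts in the control libraries and 430.3, 392 and 412 in the dKO libraries, with 217, 242 and 216 in Actr3 KO. Every dKO value exceeded every control value in both, and Rsad2 exceeded Actr3 KO too, by 0.87 ± 0.13 (SE, limma adjusted p = 3.91e-06). Irf7, the factor that amplifies interferon production, rose from 59.9 ± 6.79 to 375 ± 44.4, Usp18, which removes ISG15 from proteins, rose from 46.8 ± 7.98 to 340.3 ± 10.5, Rtp4 rose from 44.3 ± 0.770 to 356 ± 20.8 and Oasl2 rose from 63.5 ± 9.70 to 705 ± 11.8. Set against Actr3 KO the list was split, with 14 higher and 14 lower in dKO, and its median in Actr3 KO against control was 1.08.

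The interferon-response motif, GAAA followed by any 2 bases and another GAAA, was searched on both strands. It was present in 21 of 37 risen interferon genes with a promoter in the RefSeq table (56.8%). It was in 3.44% of all 32851 promoters of the same length and in 3.53% of tested genes with a promoter. Interferon genes are known for this element, so the share describes the list. The promoters of Oas3 and Rsad2 are shown as the risen members with a match among the 6 named, again as 250 bases before the start, 5′ to 3′ along the gene, with the match in capitals; that of Rsad2 reads on the opposite strand. They lie at chr5:120777660-120777909 (minus strand) and chr12:26456453-26456702 (minus strand).
Oas3: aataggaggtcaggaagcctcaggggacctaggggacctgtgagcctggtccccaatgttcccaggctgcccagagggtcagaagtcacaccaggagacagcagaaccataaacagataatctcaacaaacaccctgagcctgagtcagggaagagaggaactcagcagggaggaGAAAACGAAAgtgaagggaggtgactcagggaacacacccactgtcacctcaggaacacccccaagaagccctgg
Rsad2: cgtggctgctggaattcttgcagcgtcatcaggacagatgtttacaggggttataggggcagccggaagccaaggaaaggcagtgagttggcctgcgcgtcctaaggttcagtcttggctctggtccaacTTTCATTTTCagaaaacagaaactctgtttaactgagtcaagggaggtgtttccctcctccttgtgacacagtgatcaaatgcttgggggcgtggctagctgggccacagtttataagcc

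Genes of antigen presentation through MHC class I mostly rose against control and were mostly below Actr3 KO. Of 22 tested genes, 17 rose, 3 fell and 2 were not called, with a median log2 fold change of 0.70. Tap1, which pumps peptides into the endoplasmic reticulum, had 252, 264 and 285 normalized counts in the control libraries and 1139.5, 1346 and 1199 in the dKO libraries, with 2759, 2579 and 2713 in Actr3 KO. Psmb9 and Psmb8, subunits of the immunoproteasome, rose from 40.2 ± 7.73 to 140.3 ± 7.02 and from 492 ± 47.0 to 1060.3 ± 109.5. All 3 genes stood between control and Actr3 KO, with differences from Actr3 KO of -1.13, -1.55 and -0.69. B2m, the light chain of class I molecules, rose from 3878 ± 323 to 7256 ± 22.9 and was not called against Actr3 KO (difference -0.03). H2-T23 and H2-Q4 rose by 1.42 and 1.06, though class I genes are near-identical and may share reads. Of the 22 genes, 15 were lower and 3 higher in dKO than in Actr3 KO. The interferon motif was found in 4 of 15 risen members with a promoter (26.7%) and in 1 of 3 fallen ones (33.3%). It was in 3.44% of all promoters and in 3.53% of tested genes with a promoter.

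Chemokine and inflammatory genes moved apart from one another. Of 33 tested genes, 13 rose, 15 fell and 5 were not called, with a median log2 fold change of 0.09; the median fell below 0 without control replicate 1 (-0.16). The neutrophil and monocyte attractants were lower: Cxcl1 had 2249, 2731 and 2535 normalized counts in the control libraries and 265, 253 and 269 in the dKO libraries, Cxcl2 fell from 473 ± 83.7 to 6.61 ± 0.937, and Ccl2 went from 1053 reads to 3. The T cell attractant Ccl5, in contrast, had 20.8, 26.7 and 24.4 normalized counts in the control libraries and 136, 143 and 139 in the dKO libraries. Nfkbie, an inhibitor of NF-kB, rose from 190.1 ± 15.1 to 806 ± 44.3, and Birc3, an NF-kB target that restrains cell death, fell from 335 ± 17.1 to 64.1 ± 9.86. In the list of complement, acute phase and prostaglandin genes, 5 of 16 rose and 8 fell (median -0.03, above 0 with chromosome medians removed). Ptgs2, the inducible cyclooxygenase COX-2, had 4138, 5069.8 and 4659.5 normalized counts in the control libraries and 97.6, 78.6 and 76.5 in the dKO libraries, with 109, 115 and 164 in Actr3 KO. Ptgs1 and the prostaglandin E2 receptor Ptger4 fell from 207 ± 3.23 to 71.4 ± 17.8 and from 3785 ± 240.1 to 1119 ± 71.0, and Clu, the secreted chaperone clusterin, fell from 7909 ± 284 to 2318 ± 108. Complement factor B (Cfb) rose from 131 ± 11.2 to 233 ± 18.8.

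**Figure D4:**
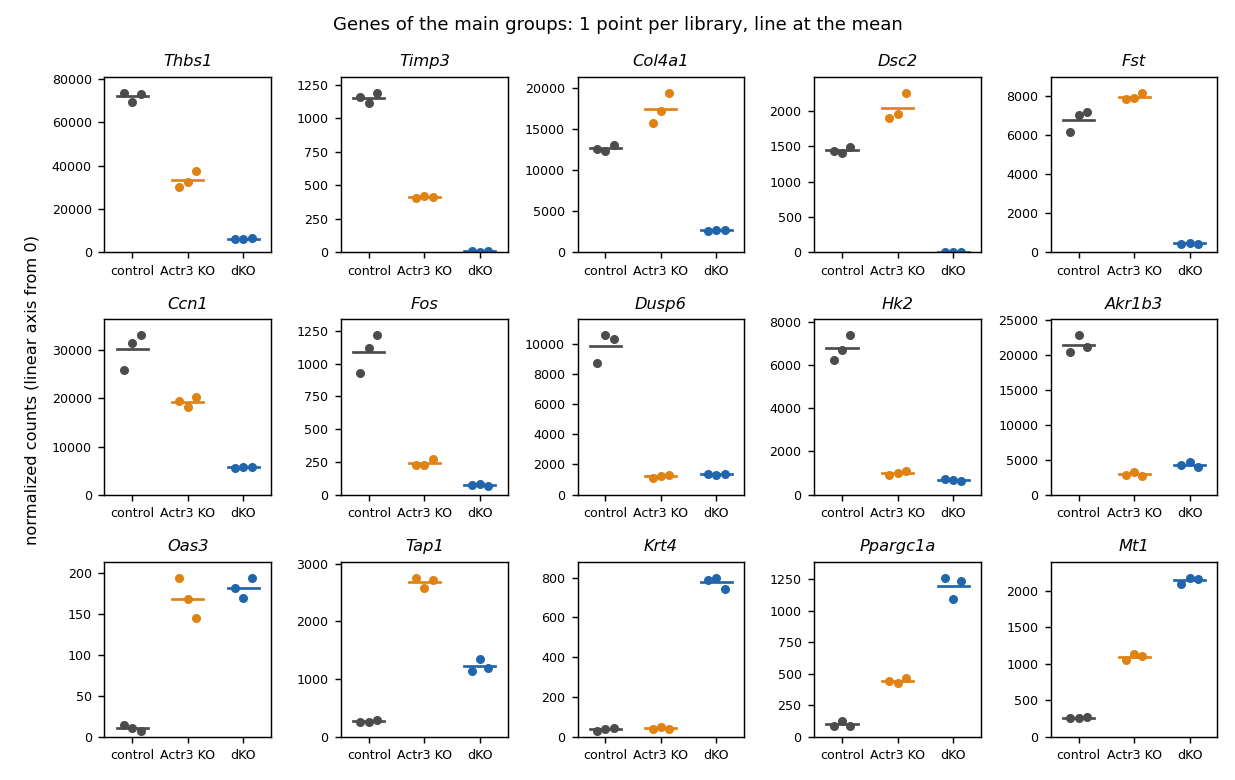
Normalized counts (y axis, linear from 0) of 15 genes in each control, Actr3 KO and dKO library, with 1 point per library and a line at the group mean. Timp3, Col4a1, Dsc2 and Fst are low in dKO but not to that degree in Actr3 KO, Dusp6, Hk2 and Akr1b3 are low in both, Oas3 is high in both, and Krt4 is high in dKO.

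Transporters and osmolyte genes of the collecting duct were lower. Of 20 tested genes, 1 rose, 15 fell and 4 were not called, with a median log2 fold change of -1.24. Akr1b3, the aldose reductase that makes sorbitol, had 20358, 22795 and 21144 normalized counts in the control libraries and 4251, 4595 and 3941 in the dKO libraries, with 2762, 3214 and 2723 in Actr3 KO. The osmolyte transporters Slc5a3 (inositol) and Slc6a6 (taurine) fell from 7003 ± 303 to 1292 ± 109 and from 26904 ± 507 to 9637 ± 255. Both transporters were lower than in Actr3 KO (differences -1.05 and -0.64), and Akr1b3 was higher, by 0.56. Slc14a2, encoding the urea transporter UT-A, fell from 190.3 ± 33.8 to 7.89 ± 2.04, Cftr, a chloride channel, fell from 328 ± 31.6 to 6.66 ± 2.65, and Hspa1b, a heat shock gene with a near-identical neighbour, fell from 9187 ± 718 to 1503 ± 135. Of transcription factors of kidney epithelium, 5 of 16 tested rose and 7 fell (median -0.07, above 0 under quantile normalization). Pax2, which specifies the ureteric lineage, fell from 5446 ± 673 to 3025 ± 15.5, and Sim1 rose from 1374 ± 155 to 2487 ± 217, a log2 fold change of 0.86 that was 0.46 with chromosome medians removed.

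Cell junctions and intermediate filaments differed gene by gene. Tight junction and polarity genes numbered 6 risen and 11 fallen of 26 tested (median -0.09, above 0 under quantile normalization). Claudins set which ions pass between cells, and Cldn2, a cation pore, had 1160.2, 1189 and 1141 normalized counts in the control libraries and 77.1, 92.5 and 99.1 in the dKO libraries. Cldn8, a barrier claudin of the collecting duct, fell from 907 ± 90.1 to 84.8 ± 4.89. Cldn3 and Cldn23 rose from 6871 ± 566 to 10499 ± 637 and from 75.1 ± 19.3 to 258 ± 29.5, and both were higher than in Actr3 KO, by 1.83 and 1.53. Of 26 tested desmosome, cadherin and gap junction genes, 5 rose and 15 fell (median -0.27). Beside Dsc2 and Gja1, the classical cadherins Cdh2 and Cdh3 fell from 13349 ± 403 to 6013 ± 259.8 and from 10341 ± 451 to 5007 ± 350.3, and Pkp1, a desmosomal plaque protein, fell (log2 fold change -1.86). Of 10 keratins tested, 1 rose and 8 fell (median -1.002). The simple epithelial keratins Krt8, Krt18 and Krt19 fell (log2 fold changes -0.79, -0.44 and -1.22) (Krt18 -0.22 under quantile normalization), Krt20 fell from 165 ± 8.51 to 4.45 ± 2.14, and Krt4 was the 1 that rose. In the urothelial and cornified list, 4 of 11 rose and 5 fell (median -0.08, above 0 with chromosome medians removed). The uroplakin genes Upk3b and Upk3bl rose from 442 ± 14.8 to 1084 ± 69.8 and from 120.4 ± 16.7 to 379 ± 11.6, with 249.6 and 35.9 in Actr3 KO, whereas Sprr1a, of the cornified envelope, fell from 493 ± 27.9 to 102 ± 30.7.

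Glycolytic and hypoxia-inducible genes were lower. Of 31 tested genes, 6 rose, 23 fell and 2 were not called, with a median log2 fold change of -0.86. Slc16a3, the lactate exporter MCT4, had 930.4, 1146 and 1159 normalized counts in the control libraries and 21.4, 13.9 and 8.83 in the dKO libraries. Hk2, the inducible hexokinase, had 6254, 6687 and 7384 normalized counts in the control libraries and 745, 657 and 627 in the dKO libraries. Slc2a1, the glucose transporter GLUT1, had 26193, 31429 and 31965 normalized counts in the control libraries and 7461, 8618 and 8124 in the dKO libraries. For all 3 each dKO value was below each control and Actr3 KO value, with differences from Actr3 KO of -1.03, -0.57 and -0.83. In the whole list, however, 17 genes were higher and 11 lower in dKO than in Actr3 KO (median 0.23). The list median in Actr3 KO against control was -0.92. Egln3, a prolyl hydroxylase that marks hypoxia-inducible factor for degradation and is itself induced by it, rose from 109 ± 14.9 to 799 ± 33.5. The motif ACGTG, the core of the hypoxia response element, was searched on both strands. It was found in 16 of 22 fallen members with a promoter (72.7%) and in 2 of 6 risen ones (33.3%). It was in 19.6% of all promoters and in 29.2% of tested genes with a promoter. The promoters of Slc16a3 and Hk2 are shown as the fallen members with the largest change, in the same form as above, at chr11:120948817-120949066 (plus strand) and chr6:82774455-82774704 (minus strand).
Slc16a3: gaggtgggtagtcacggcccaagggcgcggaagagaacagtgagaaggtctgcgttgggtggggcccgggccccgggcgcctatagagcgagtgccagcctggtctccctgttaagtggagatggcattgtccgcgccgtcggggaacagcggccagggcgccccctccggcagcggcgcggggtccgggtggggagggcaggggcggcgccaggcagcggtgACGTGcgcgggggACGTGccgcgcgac
Hk2: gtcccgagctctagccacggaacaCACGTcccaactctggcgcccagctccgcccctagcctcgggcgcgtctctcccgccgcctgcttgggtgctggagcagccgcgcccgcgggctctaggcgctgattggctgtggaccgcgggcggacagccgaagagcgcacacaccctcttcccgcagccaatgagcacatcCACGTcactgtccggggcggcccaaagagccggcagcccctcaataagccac

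Of 24 tested genes of cholesterol synthesis and uptake, 1 rose and 20 fell (median -0.63). Sqle, the squalene epoxidase of the sterol pathway, had 17035, 16264 and 16149 normalized counts in the control libraries and 9311, 9797 and 8877 in the dKO libraries. The enzymes Msmo1 and Hsd17b7, which act later in the pathway, fell from 9836 ± 167 to 5172 ± 440.3 and from 2223 ± 46.8 to 1056 ± 111. Each of these genes was lower in every dKO library than in any control library. In the list of NRF2 targets, metallothioneins and iron genes, 3 of 22 rose and 16 fell (median -0.66). Hmox1, heme oxygenase-1, had 6232, 9133 and 9186 normalized counts in the control libraries and 517, 614 and 476 in the dKO libraries, Slc7a11, the cystine transporter, fell from 716 ± 81.6 to 35.8 ± 7.25, and the transferrin receptor Tfrc fell from 18866 ± 2447 to 2122 ± 89.7. The metallothionein gene Mt1 had 254, 256 and 267 normalized counts in the control libraries and 2088, 2180.03 and 2161 in the dKO libraries, and Mt2 rose from 50.9 ± 8.10 to 490.1 ± 19.3. Both metallothioneins were above Actr3 KO as well, by 0.96 and 1.42. Of 30 tested genes of ATF4 and the unfolded protein response, 8 rose and 20 fell (median -0.52), led by Gdf15, a stress-induced cytokine, from 16964 ± 1979 to 2663 ± 192, and the amino acid transporter Slc7a5, from 10369 ± 266 to 3241 ± 154.

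Ribosomal protein genes were near control and above Actr3 KO. Of 27 tested, 10 rose and 6 fell against control (median 0.04, below 0 without control replicate 1), and all 27 were called higher in dKO than in Actr3 KO; their median in Actr3 KO against control was -0.55. Rpl5 had 26388, 25569 and 28183 normalized counts in the control libraries and 36584, 35454 and 35370.4 in the dKO libraries, with 17703, 19236 and 18168 in Actr3 KO. Rpl37a, Rplp1 and Rps2 fell (log2 fold changes -0.43, -0.40 and -0.32); the last pair lost the call under quantile normalization (limma adjusted p = 0.0531 and 0.0565), and ribosomal protein genes have many pseudogene copies that may take reads. Rpl5 rose by 0.42, and by 0.27 with chromosome medians removed and 0.77 under quantile normalization; Rpl37a stood at -0.23 and -0.23 in these settings, and Rplp1 and Rps2 at -0.13 and -0.14 in the latter. Nuclear genes of oxidative phosphorylation were divided, 10 risen and 13 fallen of 31 (median -0.12, above 0 under quantile normalization), with Ndufa4 and cytochrome c (Cycs) lowest, from 6619 ± 644 to 3304 ± 57.9 and from 2705 ± 219.6 to 1397 ± 62.2; with chromosome medians removed their log2 fold changes were -0.61 and -0.56, in place of -0.998 and -0.95. Lysosomal genes were divided as well, 7 risen and 13 fallen of 26 (median -0.09, above 0 under quantile normalization). Rragd, a GTPase of amino acid sensing and a known TFEB target, rose from 30.9 ± 7.92 to 196 ± 29.7 but lay below Actr3 KO (681), and the cathepsins Ctsz and Ctsl fell (log2 fold changes -1.18 and -0.89).

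Cell cycle genes held 8 risen and 19 fallen members of 41 tested (median -0.11, above 0 under quantile normalization). Ccnd1, cyclin D1, had 1038, 1037 and 983 normalized counts in the control libraries and 207, 191 and 169.8 in the dKO libraries, with 102, 82.8 and 107 in Actr3 KO. Ccne1 and Ccne2, the cyclins E, fell from 1683 ± 43.9 to 490.2 ± 32.1 and from 997 ± 78.4 to 495 ± 3.57. Cyclin D1 in dKO was far below control but above Actr3 KO, by 0.95 ± 0.12 (SE, limma adjusted p = 7.22e-07). Mcm7, of the replicative helicase, rose from 19507 ± 454 to 29119 ± 1185, and Rrm2, which makes deoxynucleotides, fell from 9188 ± 417 to 5837 ± 90.8. Of p53 targets and apoptosis regulators, 8 of 29 rose and 15 fell (median -0.19); the anti-apoptotic Bcl2 fell from 602 ± 44.5 to 296 ± 3.65 and the pro-apoptotic Bik rose from 122 ± 17.2 to 316 ± 19.9. Retinoid genes were even, 6 risen and 6 fallen of 12 (median -0.12, above 0 with a mean of at least 50). Stra6, the receptor for retinol binding protein, rose from 115 ± 11.0 to 429.96 ± 25.4, Dhrs3, which reduces retinal, rose from 974 ± 34.0 to 2590.2 ± 112, and Cyp26b1, which breaks down retinoic acid, fell from 299 ± 17.7 to 69.3 ± 12.9.

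Markers of the labelled cell type were present in both groups. Of 12 markers of inner medullary collecting duct or ureteric epithelium, 11 was tested, 3 were higher and 7 lower in dKO, and their summed level was 104705 to 112382 in control and 70910 to 76580 in dKO libraries. The defining water channel Aqp2 was at 0 in all control libraries and between 0 and 1.86 in dKO, while Pax8, Krt8, Cdh1 and Epcam were abundant. Fibroblast markers summed to 123 to 188 in control and 107 to 113 in dKO, with Col1a2 and Col3a1 at 0 in all 6 libraries. Of the 3 fibroblast markers tested, Col1a1 was lower in dKO (mean 133 in control and 63.6 in dKO), while Pdgfra (2.91 and 28.1) and Dcn (4.69 and 16.7) were higher. Leukocyte markers summed to 180 to 212 and 136 to 156 (mostly Cd68), with Adgre1 at 0. Endothelial markers summed to 340 to 371 and 65.7 to 79.5, with Flt1 at a mean of 326 and 41.0, Plvap at 17.7 and 22.4 and Emcn at 0. Proximal tubule markers summed to 10365 to 12593 and 5378 to 6634, nearly all of it Lrp2, with Slc34a1, Slc22a6 and Slc5a12 at 0. Markers of the thick ascending limb summed to 355 to 516 and 108 to 125 (mostly Umod), of podocytes to 5082 to 5614 and 4625 to 4869 (Podxl and Synpo, with Wt1 at 0), of neurons to 404 to 429 and 562 to 608 (mostly Tubb3, with Map2 at a mean of 18.6 in control and 0 in dKO), and of muscle to 10.8 to 23.1 and 10.8 to 13.0, with no muscle marker tested. Their part in the results was not tested.

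The fold changes were not spread evenly over the genome. The median log2 fold change of dKO against control was 0.40 over the 642 genes tested on chromosome 10, and -0.44, -0.39 and -0.39 on chromosomes 3, 16 and 6. Against Actr3 KO the median on chromosome 10 was 0.41, on chromosome 3 -0.39 and on chromosome 16 -0.41, while chromosome 6 stood at 0.04 in that contrast and at -0.42 in Actr3 KO against control. Chromosome 5 stood at 0.16 against control and at 0.40 against Actr3 KO, which itself lay at -0.24 against control. With these medians removed from each library, 8790 genes were called in place of 9235. Genes named above lie on these chromosomes, among them Timp3, Gja1 and Marcks on chromosome 10, Frem2, Ccn1 and Adh7 on chromosome 3, Pros1 on chromosome 16 and Hk2 on chromosome 6. What gives rise to the chromosome medians was not tested.

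**Figure D5:**
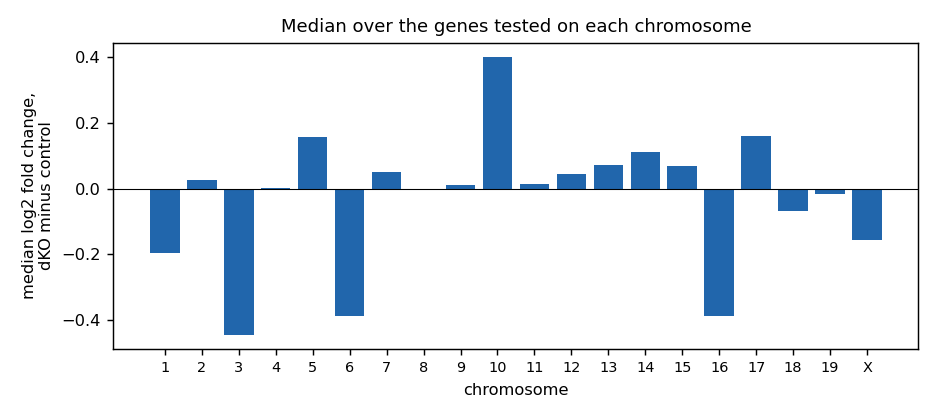
Bars show, for each chromosome (x axis), the median log2 fold change, dKO minus control, over the genes tested there (y axis, from 0). Chromosome 10 is highest, at 0.40, and chromosomes 3, 16 and 6 are lowest, at -0.44 and -0.39.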

How the data were processed

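RNA sequencing of mIMCD3 libraries was analysed from 1 deposited table of 27179 genes, in which the authors give normalized counts, a signal scaled per library, per the file headers. The submitters' processing notes name fastp 0.23.2, HISAT2 2.2.1, featureCounts 2.0.1, DESeq2 2.11.40.7 and the mouse build mm10 (GRCm38); the labels record neither strand use nor multi-mapping. Every one of the 12 columns was mapped, 0 being of no sample. Of the gene IDs, 25275 were named from RefSeq GRCm38.p6 and 18 from GENCODE, and 1886 had no match.

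Genes with at least 10 in at least 3 of the 6 dKO and control libraries were kept. Values were tested as log2(value + 1) with limma 3.58.1 (R 4.3.3) over all 12 libraries, with Benjamini-Hochberg adjustment over the 13495 genes; the other groups contribute to the estimate of spread. Values were whole multiples of a step per library within 0.01, which gave back whole reads and the depth. This held for Actr3 KO replicate 1 too, but its step of 0.993 lies so near 1 that the unit was held uncertain. For this reason edgeR 4.0.16 and DESeq2 1.42.0 used 11 libraries. Reads of that replicate enter only the depth and read totals of Actr3 KO. On simulated data (10 draws, 200 changed genes of 13495, dKO against control) limma recovered 70.2% of 1.25-fold, 92.8% of 1.5-fold and 100% of 2-fold and 4-fold changes, with 5.5% of calls false. Changes were placed only in genes with a control mean of at least 50, and far fewer genes changed than were called in the data. The rates thus do not describe low genes or the share of false calls among the 9235.

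The 38 gene lists, 9 marker lists and the comparison were chosen with earlier results of these data known. Named were the edited genes and Arp2/3 subunits and, where control or dKO averaged 100 or more, the 15 highest and 15 lowest called genes without overlap (unnamed gene models left out), the 10 in each direction furthest from both lines and up to 6 members per list, and also genes nearly without reads in dKO. Alternatives were another pseudocount, filter, scaling or tool, the replicate block, chromosome medians removed and each library left out. Some members of the lists are counted but not reported here by name.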

Additional observations from a re-analysis of the deposited data

How the results depend on the processing

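Across the alternatives tried, 8347 to 9536 genes were called between dKO and control, against 9235. edgeR called 9305 and DESeq2 9050. Leaving out 1 library at a time gave 8620 to 9231. With a mean of at least 50 required, 979 genes changed at least 2-fold in place of 1606. Of these, 360 were higher in place of 586 and 619 lower in place of 1020. That setting tested 11663 genes in place of 13495, a smaller drop than that in 2-fold changes. Genes of low mean thus held more than their share of the 2-fold changes. Only 2 replicate numbers are shared, and deviations from the group means correlated at 0.0936 for number 1 and -0.00216 for number 3. The control library without a number gave the highest value of all pairs, 0.182 with dKO replicate 2. It also gave the lowest, -0.147 with dKO replicate 1. Whether the samples are paired is thus not settled. With the replicate block 8665 genes were called (1611 at least 2-fold). The log2 fold change of Smo was 0.0026 with chromosome medians removed (limma adjusted p = 0.972), the 1 reversal among the named genes; the cause was not tested. Among other named genes the calls of Arpc2, Arpc3, Arpc4, Arpc5, Arpc5l, Iqcb1, Ptch1, Rplp1 and Rps2 were lost under some setting, and the medians of 12 of the 38 lists, which lay between -0.12 and 0.09, changed sign under some setting; the cause was not tested. Depth limits the genes with few reads, for which bounds are given.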
